A study of Mus musculus with 2 samples.

Results

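The genes of the platelet-derived growth factor (PDGF) system were followed in E3.75 mouse embryos. One library was made from intact blastocysts (called whole blastocysts here) and the other from inner cell masses (ICMs). The ICMs were blastocysts from which the outer cells had been removed by immunosurgery, a lysis by antibody and complement. The members are the rows of the deposited table whose symbol is Pdgfra or Pdgfrb (the receptors) or Pdgfa, Pdgfb, Pdgfc or Pdgfd (the ligands), which makes 6 genes of 19559 listed. All 6 were found in the table. Embryos of both groups came from B6CBAF1 females mated with CD-1 males, with no other treatment given in the labels. The number of embryos behind either library is not given in the labels. The whole blastocyst includes its own ICM, so the libraries are not separate tissues.

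PDGF ligands are secreted dimers that bring together pairs of receptor chains, receptor tyrosine kinases that then dock adaptors and signal through RAS and ERK, PI3K and AKT, and phospholipase C gamma. PDGFRA binds the A, B and C chains, whereas PDGFRB binds the B and D chains. The C and D chains are secreted in a latent form and must be cut by extracellular proteases before they bind. In the mouse blastocyst PDGFRA is a standard marker of the primitive endoderm, the ICM lineage that forms the yolk sac, and PDGF signalling is known for its part in the survival of those cells. The trophectoderm is the outer epithelium that forms the placenta, and the epiblast is the ICM lineage that forms the fetus.

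One receptor gene and one ligand gene carried nearly all reads of the family, and they lay on opposite sides of the comparison. Pdgfra was far higher in the ICM library, and Pdgfa was higher in whole blastocysts. Both genes lie on chromosome 5. The stretches before their annotated starts are shown because these are the members with a measurable level, with each CpG in capitals (RefSeq, GRCm38.p6, matched by symbol).
Pdgfra, chr5:75152001-75152250, plus strand: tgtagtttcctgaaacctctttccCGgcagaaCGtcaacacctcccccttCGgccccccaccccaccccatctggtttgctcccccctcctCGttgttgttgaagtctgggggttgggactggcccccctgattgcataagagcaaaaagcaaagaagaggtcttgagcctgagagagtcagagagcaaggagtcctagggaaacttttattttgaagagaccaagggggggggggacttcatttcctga
Pdgfa, chr5:138995038-138995194, minus strand: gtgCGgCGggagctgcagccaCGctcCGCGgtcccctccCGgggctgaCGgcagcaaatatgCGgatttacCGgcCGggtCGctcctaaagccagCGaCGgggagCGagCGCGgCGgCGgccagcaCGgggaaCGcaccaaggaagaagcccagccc

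The Pdgfa stretch is cut to the 157 bases that lie outside annotated exons of the gene. Over the full 250 bases before the start, Pdgfra had 4 CpGs and a GC content of 54.4%, close to the medians of 6 CpGs and 52.4% over 32851 promoter windows of the same length. The matching Pdgfa window had 28 CpGs and 72.4% GC, more CpGs than 92.4% of windows. A second RefSeq start of Pdgfa had 19 CpGs and 66.4% GC in its window. A search of both strands for GATAA, the core word of GATA factors, found no match in these windows, and 22.6% of all windows hold at least 1. The TEAD word GGAATG and the TFAP2 word GCCNNNGGC were not found either, and 12.6% and 13.7% of all windows hold them. The GC box GGGCGG, which 32.7% of windows hold, was found at 2 places in the CpG-rich Pdgfa window and at none in that of Pdgfra. Neither of the 2 lies wholly within the 157 bases printed. The window of the second Pdgfa start held 1. These matches only describe the letters, since binding was not measured.

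The libraries held 9271198 reads on listed genes (whole blastocyst) and 4125479 (ICM), with at least 1 read for 12795 and 11608 genes. With no replicate there is no spread between samples to compare a difference with, and no p-value is given. Intervals are exact 95% counting intervals and cover counting error only, because reads of amplified cDNA with no molecular identifiers are not independent molecules. Levels are RPKM, reads divided by gene length in kilobases and by a total for the library. Differences are log2((ICM RPKM + 1)/(whole-blastocyst RPKM + 1)). They were taken over the 8981 genes that reached an RPKM of 1 in either library, and the pseudocount of 1 understates changes of low genes. Most genes were lower in the ICM library by RPKM. The median difference was -0.84 over those genes and -0.66 over the 3013 genes that reached an RPKM of 5 in each library, and values "relative to the shift" have the latter subtracted.

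Of the 6 members, 2 passed the filter of an RPKM of 1 and 4 did not. Of the pair that passed, 1 was at least 2-fold higher in the ICM, which was so for 8.96% of all genes tested (16.9% relative to the shift). The other was at least 2-fold lower, which was so for 44% of all genes tested (20.5% relative to the shift). As deposited, lower values were the more common, and relative to the shift the shares on the sides were closer.

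Pdgfra, the receptor for the A, B and C chains, had 335 reads in whole blastocysts and 8399 reads in the ICM. Its RPKM was 2.29 in whole blastocysts and 68.1 in the ICM. The ICM level was 29.8-fold higher (26.7 to 33.3), a difference of 4.39, or 5.05 relative to the shift. Pdgfra held place 6683 by RPKM among the 12795 genes with a read in whole blastocysts and place 202 among 11608 in the ICM. Its difference was the 8th highest of the 8981. The whole-blastocyst RPKM of Pdgfra was 3.36% of the ICM value (3.004 to 3.748). For the 9 primitive endoderm markers at least 2-fold higher in the ICM this share ranged from 0% to 28.7%. For the 8 such epiblast markers it ranged from 0% to 37.9%. Both sets were taken for being higher in the ICM, so a low share was fixed in advance. Other primitive endoderm markers that passed the filter had shares of 58.3% (Cubn), 138% (Gata6), 2134% (Dab2) and 9305% (Lrp2). The other epiblast markers had 68.7% (Sox2) and 67.8% (Klf4). The share of ICM RNA in the whole blastocyst was not measured, and the part of amplification in these values was not tested. Because the library is bulk RNA, more cells that hold the transcript and more transcript per cell cannot be told apart.

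Pdgfrb, the receptor for the B and D chains and a marker of mesenchyme and pericytes, had 1 read in whole blastocysts and none in the ICM. Both values are at or under the floor of 3 reads, so no ratio is given. Pdgfra made up 99.5% of the summed receptor RPKM in whole blastocysts and 100% in the ICM, where it held all 8399 receptor reads (exact lower limit 99.96% of reads).

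Pdgfa, which encodes the A chain, had 2124 reads in whole blastocysts and 390 reads in the ICM. Its RPKM was 187.3 in whole blastocysts and 40.8 in the ICM. The ICM level was 4.59-fold lower (4.12 to 5.12), a difference of -2.17, or -1.51 relative to the shift. By deposited RPKM, Pdgfa held place 126 by RPKM in whole blastocysts and place 422 in the ICM, above 99.02% and 96.4% of the genes with a read. These places depend on the length behind RPKM, which for Pdgfa was short: set against the longest protein-coding transcript, it was 0.279 of the median over 6699 genes, and 7.45% of those genes had a lower value. Of the genes tested, 10.6% had a lower difference than Pdgfa, so many transcripts were farther on that side.

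The other ligand genes were at or near the limit of detection. Pdgfb, the B chain, which binds both receptors, had 7 reads in whole blastocysts and 1 in the ICM, with an RPKM of 0.113 and 0.0191. Equal RPKM would have given 5.90 ICM reads, and the ratio of ICM to whole blastocyst was 0.170 with an interval of 0.00376 to 1.32, so a difference was not detectable at this depth. Pdgfc and Pdgfd, the chains with latent forms, had no read in either library. A count of 0 has an exact 95% upper limit of 3.69 reads, of the 9271198 and of the 4125479 listed. Such genes were common, since 28.3% of all listed genes had no read in either library. Pdgfa made up 99.9% of the summed ligand RPKM in whole blastocysts and 99.95% in the ICM.

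**Figure D1:**
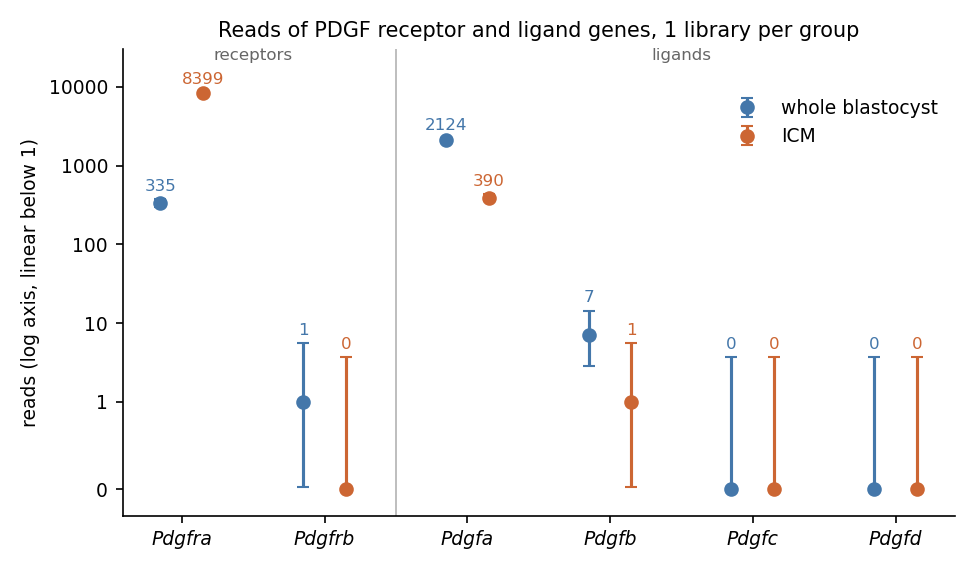
Reads of the 2 receptor genes and the 4 ligand genes in the whole-blastocyst library and the ICM library (1 library each), on a log axis that is linear below 1, with exact 95% counting intervals as bars (up to 3.69 for a count of 0). Pdgfra went from 335 to 8399 reads and Pdgfa from 2124 to 390, while the remaining members had at most 7 reads.

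The balance of ligand to receptor differed between the libraries by more than either gene did alone. This holds by construction for genes that differ in opposite directions, since the change in balance multiplies their ratios. By RPKM, Pdgfa stood 81.8-fold above Pdgfra in whole blastocysts (72.9 to 92.1). In the ICM the order was turned, with Pdgfra 1.67-fold above Pdgfa (1.51 to 1.85). The ratio of Pdgfa to Pdgfra was thus 137-fold larger in whole blastocysts (117 to 160). That value comes from the 4 read counts alone and depends neither on gene length nor on the scaling between the libraries. The within-library ratios do depend on length. The length behind the deposited RPKM was 12.9 times longer for Pdgfra than for Pdgfa, whereas their longest protein-coding transcripts in GENCODE M21 are 6834 and 2060 bases, a ratio of 3.32. Per base of those transcripts, Pdgfa stood 21.03-fold above Pdgfra in whole blastocysts and Pdgfra 6.49-fold above Pdgfa in the ICM, so the order in each library was kept.

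**Figure D2:**
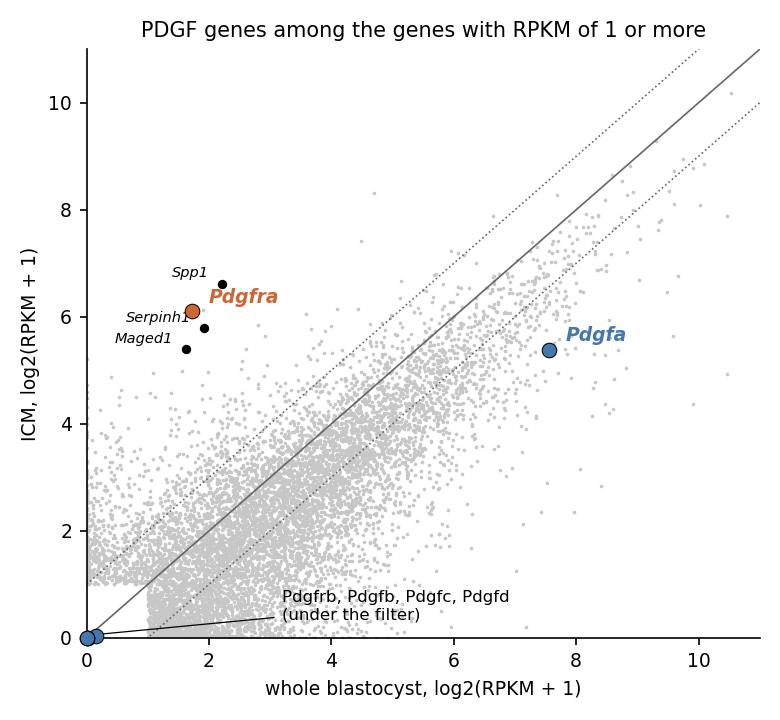
Each grey point is 1 of the 8981 genes that reached an RPKM of 1 in either library, at log2(RPKM + 1) in whole blastocysts (horizontal) and the ICM (vertical), with lines at equality and (dotted) at 2-fold. Pdgfra (2.29 and 68.1 RPKM) lies at the upper edge, Pdgfa (187.3 and 40.8 RPKM) under the lower dotted line, and the other 4 members near 0; black points are the 3 genes nearest to Pdgfra.

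Reads of overlapping genes could add to these values, since no source used here says whether the authors' counting used strand. In GENCODE M21, exons of Pdgfra overlap unnamed gene models on the opposite strand, and exons of Pdgfa overlap the antisense RNA 6330403L08Rik. Exons of Pdgfra also overlap the microRNA gene Mir7025 on the same strand, which counting by strand would not separate. None of these is listed in the table, so their part in the values was not tested. The nearest protein-coding neighbours of Pdgfra in RefSeq are the homeobox gene Gsx2 and Kit, the receptor for stem cell factor and a close relative of PDGFRA. Neither had a read in either library. Prkar1b, a regulatory subunit of protein kinase A next to Pdgfa, had 4 reads in whole blastocysts and none in the ICM. Next to Pdgfrb, the related receptor gene Csf1r had 1 read in each library. Next to Pdgfb, the Polycomb gene Cbx7 had 1692 and 404 reads and the ribosomal protein gene Rpl3, which has near-identical copies, 6 and 2. Next to Pdgfc, Ctso, a cathepsin gene, had no read and 1 read. Next to Pdgfd, Casp12, a caspase gene, had 1 read and none, and Dync2h1, a dynein heavy chain of cilia, had 143 and 3.

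Beside markers of the blastocyst lineages, Pdgfra lay at the high end of the primitive endoderm genes. Of 17 such genes measured (Pdgfra itself not counted), 13 passed the filter, with a median difference of 1.84 against -0.84 over all genes. Of the 13, 9 lay past 2-fold toward the ICM and 2 past 2-fold the other way, against 8.96% and 44% of all genes tested. Relative to the shift, these numbers were 10 and 2, against 16.9% and 20.5%. Pdgfra had a higher ICM RPKM than any of the 17. The transcription factor gene Gata4 (6 and 320 reads) had a ratio of 63.3 (28.8 to 174), an interval that overlaps that of Pdgfra. Foxq1, a forkhead factor gene, had no read and 388 reads, at least 153.5-fold higher at a floor of 3 reads (124-fold by the exact 95% limit), and was the only one of the 9 with its interval above that of Pdgfra. For 5 of the 9 the interval lay below it, among them Serpinh1, the collagen chaperone, at 19.5 (16.3 to 23.4), and the laminin gene Lamc1 at 3.49 (3.29 to 3.70). The collagen IV gene Col4a1 at 21.8 (17.1 to 28.2) and Sox17 at 14.2 (8.04 to 27.2) overlapped it. Not every gene of the lineage list went this way. Gata6, the early regulator of the lineage, had a ratio of 0.727 (0.674 to 0.783), a difference of -0.44, or 0.21 relative to the shift. The endocytic genes Dab2 and Lrp2 were lower in the ICM, at 4.69% (4.05 to 5.39) and 1.08% (0.847 to 1.35) of the whole-blastocyst RPKM. The summed RPKM of the list was 257 in whole blastocysts and 251 in the ICM. Of 10 epiblast markers, 8 lay past 2-fold toward the ICM and none the other way, with a median of 1.57. The ratio interval lay below that of Pdgfra for 7 of those 8, and the other, Bmp4, had no read in whole blastocysts. Relative to the shift, all 10 epiblast markers lay past 2-fold toward the ICM.

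Pdgfa was lower in the ICM library, as were the trophectoderm markers, but by less. All 10 of those markers were at least 2-fold lower in the ICM, against 44% of all genes tested, with a median difference of -3.10. Relative to the shift, 9 of the 10 were, against 20.5% of all genes. ICM levels of the 10 ranged from 0% (Elf5, with no ICM read) to 14.3% of the whole-blastocyst RPKM, with a median of 8.39%. Pdgfa stood at 21.8% (19.5 to 24.3), and the interval of each of the 10 markers lay below that range. The nearest was Tfap2c (listed as Tcfap2c) at 14.3% (12.6 to 16.3), and the farthest with ICM reads was the keratin gene Krt18 at 2.08% (1.80 to 2.39). The summed RPKM of these markers was 1714 in whole blastocysts and 56.4 in the ICM, so their transcripts were still read in the ICM library. The part of any outer-cell RNA in the ICM level of Pdgfa was not tested.

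**Figure D3:**
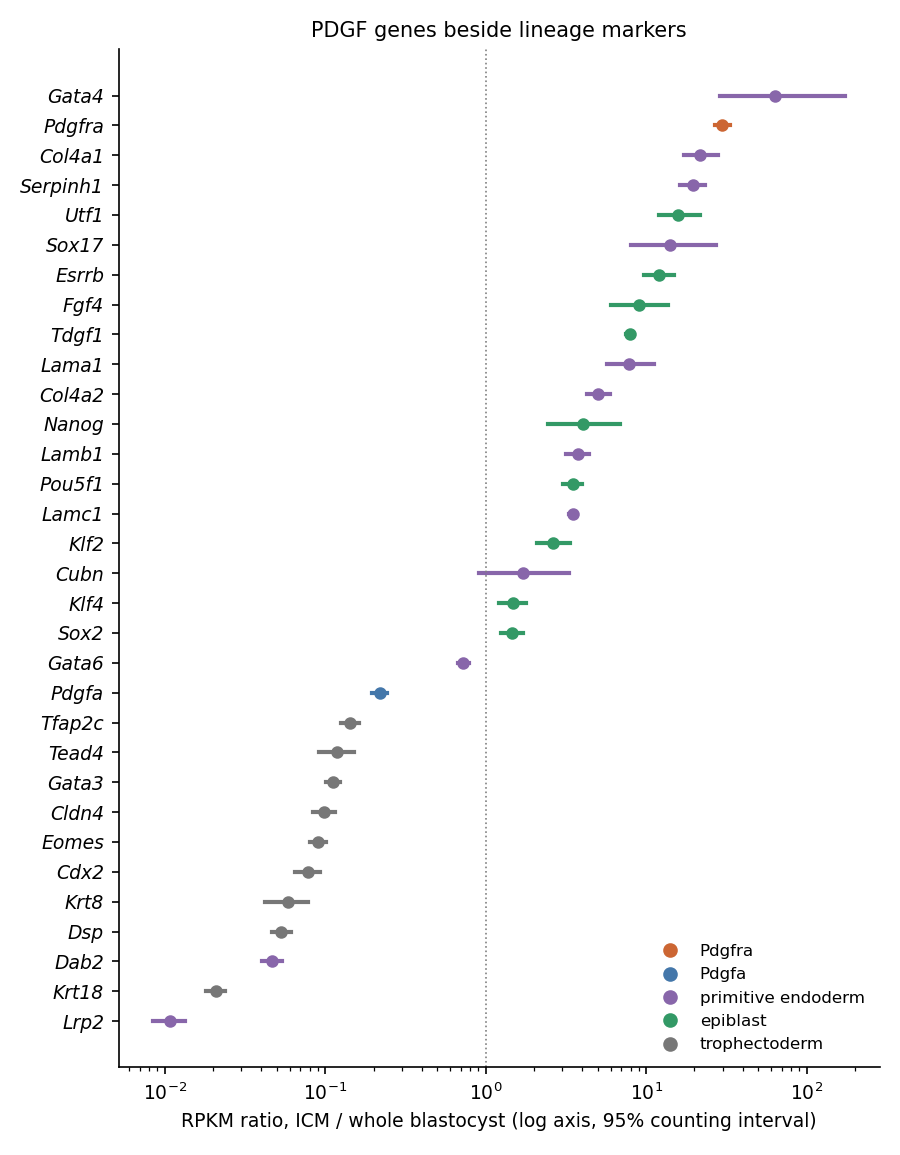
RPKM ratio of ICM to whole blastocyst on a log axis, with 95% counting intervals as lines, for Pdgfra, Pdgfa and the lineage markers that passed the filter and had reads in both libraries. Pdgfra at 29.8 stands next to Gata4 at the top, and Pdgfa at 0.218 lies below Gata6 and above the trophectoderm markers. Dab2 at 0.0469 and Lrp2 at 0.0107, of the primitive endoderm list, also lie below Pdgfa.

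Markers of cell types that are not part of the blastocyst were mostly near 0. Of all 19559 listed genes, 7379 had at most 3 reads in all and 8981 passed the filter. Of 15 markers of mesenchyme, fibroblasts and mural cells, 10 had at most 3 reads in all, among them Col1a1, Col1a2, Col3a1, Dcn, Lum and Postn. Their summed RPKM was 1.50 in whole blastocysts and 29.5 in the ICM, where Vim (7 and 289 reads) and Thy1 (6 and 351 reads) made up most of it; whether cells with these transcripts add to the Pdgfra level was not tested. None of 7 platelet, blood and immune markers measured passed the filter, with a summed RPKM of 0.367 and 0.0138, and the platelet genes Pf4 and Ppbp had no read.

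The genes with levels most like Pdgfra, by distance on log2(RPKM + 1) over these 2 libraries, were Serpinh1 (2.78 and 54.1 RPKM, distance 0.384), the secreted phosphoprotein gene Spp1 (3.63 and 97.2 RPKM, 0.706) and Maged1, a MAGE family gene (2.08 and 40.9 RPKM, 0.728). They were followed by Pmaip1, which encodes the apoptosis protein NOXA, Utf1, a chromatin factor of pluripotent cells, Plod2, a lysyl hydroxylase of collagen, Rpl27a and Trp53, the p53 gene, at distances of 1.11 to 1.28. Rpl27a encodes a ribosomal protein and has near-identical copies, so its reads are uncertain. With 2 values per gene, this likeness describes the levels in these libraries only.

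Genes that make, bind, relay or end the PDGF signal were mostly lower in the ICM library, as most genes were. The 8 lists also include receptors related to the PDGF receptors and the ligands of those. Across all 8, 90 of 92 genes were measured and 59 passed the filter. Of these, 3 lay past 2-fold on the higher side and 30 on the lower side, against 8.96% and 44% of all genes tested. The median difference over the 8 lists was -1.02, against -0.84 over all genes tested. Without the related receptors and their ligands, 57 passed, with 2 higher, 30 lower and a median of -1.02. The split over the 8 lists depended on scaling. It was 9 higher and 13 lower relative to the shift, 15 and 19 as TPM, 11 and 11 after quantile normalization, and 12 and 14 when scaled to the reads on listed genes. Over all genes and relative to the shift, 16.9% were past 2-fold on the higher side and 20.5% on the lower side. Shares over all genes are not given here for the other scalings, so those counts cannot be compared with them.

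Of 5 measured genes for proteases that cut PDGF precursors, 4 passed, and those 4 were at least 2-fold lower in the ICM, as were 44% of all genes tested. Their median was -2.04, and 2 stayed past 2-fold relative to the shift, against 20.5% of all genes. Plat, tissue plasminogen activator, which activates the C chain, had 760 reads in whole blastocysts and no ICM read, at least 213-fold lower at a floor of 3 ICM reads (173-fold by the exact 95% limit). St14, the protease matriptase, had 530 and 38 reads and was 11.7-fold lower (8.45 to 16.8). Furin, a proprotein convertase that cuts the A and B chains, was 7.35-fold lower (5.29 to 10.5) and its relative Pcsk7 5.70-fold (3.87 to 8.67). Plau, urokinase, an activator of the D chain, had 1 read and 3 reads. Of the 5 genes for extracellular or membrane partners and co-receptors, 1 passed. Sparc, a matrix glycoprotein that binds the B chain, had 1241 and 13341 reads and an RPKM of 24.8 and 316.4. Nrp1, A2m and Cav1 had no read in either library, and Lrp1 had 16 reads in whole blastocysts and none in the ICM.

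Among the 23 genes for adaptors and enzymes that dock on the receptors, 19 passed, with a median of -0.84, the same as over all genes. At least 2-fold lower were 8 and none was 2-fold higher, against 44% and 8.96% of all genes tested. Relative to the shift, 2 were lower and 3 higher, against 20.5% and 16.9%. The SH2 and SH3 adaptor gene Nck1 had the farthest value, 12.3 and 0.671 RPKM, 18.3-fold lower (11.3 to 31.7). Sos1, a RAS exchange factor, was 5.81-fold lower (5.01 to 6.77), the adaptor gene Grb10 3.74-fold (3.34 to 4.19) and the PI3K catalytic gene Pik3cb 2.91-fold (2.72 to 3.13). Read levels among the docking enzymes differed widely. The PI3K regulatory subunit gene Pik3r1 had 5.09 and 7.38 RPKM, the phosphatase gene Ptpn11 11.1 and 7.16, and the adaptor gene Shc1 3.81 and 8.06. Plcg1, phospholipase C gamma 1, had 1 read and none. Of the SRC family kinase genes, Fyn had no read, Src had 15 and 4 reads, and Yes1 had 28.9 and 18.9 RPKM. These 7 genes outside the naming rule were chosen after their values were seen.

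Of 10 genes from RAS to ERK, all passed, 5 were at least 2-fold lower and none 2-fold higher, with a median of -0.87, and 1 each relative to the shift. Araf was 11.3-fold lower (6.11 to 23.05), Hras (listed as Hras1) 3.88-fold (2.78 to 5.53) and Braf 3.38-fold (3.09 to 3.70). Of the 16 genes from PI3K to AKT and mTOR, 15 passed, 9 were lower and none higher, with a median of -1.13, or 5 lower and 1 higher relative to the shift. For both lists, the shares over all genes tested were 44% lower and 8.96% higher, or 20.5% and 16.9% relative to the shift. The mTOR brake Tsc1 was 9.21-fold lower (7.74 to 11.04), the S6 kinase gene Rps6kb1 7.87-fold (6.23 to 10.1) and Gsk3b, a kinase that AKT inhibits, 3.59-fold (3.48 to 3.70).

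Of 7 genes that switch PDGF receptors off, 5 passed, and 4 of these were at least 2-fold lower, as were 44% of all genes tested. The median was -1.71. Relative to the shift, 3 lay past 2-fold on the lower side and 1 on the higher side, against 20.5% and 16.9% of all genes. Cblc and Ptprj had no read. The ubiquitin ligase genes Cbl and Cblb, which send activated receptors to the lysosome, were 5.37-fold (4.89 to 5.91) and 5.41-fold (4.92 to 5.97) lower. The phosphatase genes Acp1 and Ptpn2 were 11.7-fold (6.83 to 21.9) and 3.45-fold (2.93 to 4.09) lower. The phosphatase gene Ptpn1 stood on the other side, with 1.16 and 2.53 RPKM. Of 9 immediate early genes that PDGF induces in fibroblasts, 3 passed. Egr1, a zinc finger factor gene, had 3 and 373 reads, a ratio of 148 (50.1 to 719). Jun had 2.90 and 2.25 RPKM and Myc 5.23 and 2.49, differences of -0.26 and -0.83. Of the 6 under the filter, Fosb had 6 and 62 reads and Ier3 8 and 21, while Fos had 9 and 5, Ier2 66 and 49, Egr2 4 and none, and Junb 2 and none. These genes also respond to many signals other than PDGF.

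**Figure D4:**
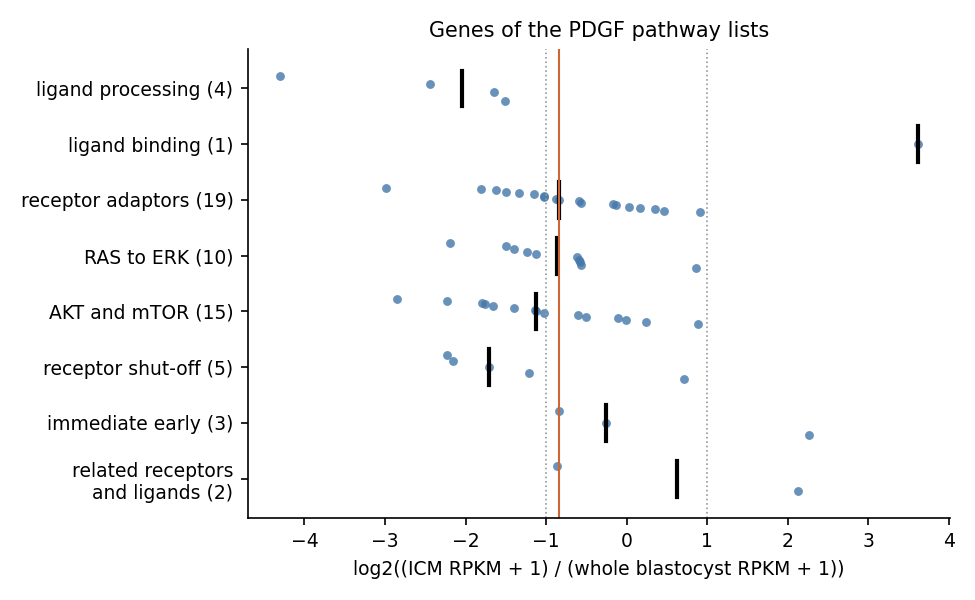
Points show the difference, log2((ICM RPKM + 1)/(whole-blastocyst RPKM + 1)), of each gene of the 8 lists that passed the filter, related receptors and their ligands included. Black bars are list medians, the orange line is the median of all genes tested (-0.84), and dotted lines stand at 2-fold. The number of genes plotted stands after each list name; most points lie left of 0, and Sparc, Egr1 and Vegfc lie beyond 1.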

How the data were processed

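RNA of 1 whole-blastocyst library and 1 ICM library was analysed. Per the labels' protocols, the RNA was amplified (NuGEN Ovation) before SOLiD fragment libraries were built from the cDNA. The authors deposited, for each gene and library, a count of reads and its RPKM. Per the submitters' processing notes the build was mm9. No source used here names the aligner or the annotation, or says how strand and reads with several matches were treated. The ICM total behind the deposited RPKM was 0.842 of the whole-blastocyst total, and the listed reads had a ratio of 0.445, so the RPKM totals are not the sums of the listed reads.

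The members and gene lists were chosen with earlier results of these data known. RPKM ratios carry exact conditional (Clopper-Pearson) 95% intervals from the counts. Ratios against a count of 0 are bounded at a floor of 3 reads and by the exact 95% limit. Only the latter counts the error of both libraries. The intervals were tested on simulated Poisson counts. Such counts are independent by construction, so this checked the calculation and not the fit to reads of amplified cDNA. Named genes were the 6 members, up to 4 genes per pathway list with the largest difference, the 8 genes nearest to Pdgfra (unnamed gene models passed over) and the nearest protein-coding neighbours. A few genes taken by this rule are left out of the text. Other list genes and the lineage markers named were chosen after their values were seen. Older symbols were matched through RefSeq (GRCm38.p6). Tools were Python 3.11.15, numpy 2.4.6, pandas 2.3.3 and scipy 1.17.1. Alternatives were other pseudocounts, filters, scalings and lengths.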

Additional observations from a re-analysis of the deposited data

How the results depend on the processing

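Pdgfra was higher and Pdgfa lower in the ICM, each by at least 2-fold, under all 6 alternatives to the RPKM as deposited with a pseudocount of 1. The Pdgfra difference was 4.84 with a pseudocount of 0.1 and 3.33 with 5, and it was 5.05 centred, 5.75 as TPM, 5.31 after quantile normalization and 5.30 scaled to the reads on listed genes. The Pdgfa difference was -1.51 centred, -1.24 as TPM, -1.23 after quantile normalization and -1.27 scaled to listed reads. The Pdgfb difference, -0.13 on 7 and 1 reads, was -0.84 with a pseudocount of 0.1, -0.43 as TPM and 0.53 centred, where by construction a gene near 0 takes on the shift. The next counts are over all 8 lists, related receptors and their ligands included. Genes at least 2-fold higher numbered 7 with a pseudocount of 0.1 and 1 with 5, and 9 centred, 15 as TPM, 11 after quantile normalization and 12 scaled to listed reads, against 3. Those at least 2-fold lower numbered 12 with a pseudocount of 5, and 13, 19, 11 and 14 under those scalings, against 30. Shares over all genes are given only as deposited and relative to the shift. By reads, Pdgfa was 99.7% of ligand reads in whole blastocysts. By reads not divided by length, the ratio of Pdgfa to Pdgfra was 6.34 in whole blastocysts and 0.0464 in the ICM, and per base of the longest transcript, an alternative added after seeing the data, it was 21.03 and 0.154, which by construction moves both libraries alike. Of the 8 genes nearest to Pdgfra, 7 were the same with a pseudocount of 0.1 and 8 after quantile normalization. No paired analysis was possible because each group holds 1 library. Depth limits Pdgfrb, Pdgfb, Pdgfc and Pdgfd, which had at most 7 reads in a library.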

Other observations

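Most of the receptors related to the PDGF receptors, and most of their ligands, did not reach an RPKM of 1 in either library. Of 15 such genes, 4 had no read in either library, 7 had at most 3 reads in all, and 2 passed the filter. Of all 19559 listed genes, 5529 had no read in either library, 7379 had at most 3 in all and 8981 passed, so genes with few reads were common throughout. Vegfa, the main endothelial growth factor gene, had 908 reads in whole blastocysts and 387 in the ICM, with an RPKM of 10.7 and 5.41. Vegfc, a ligand of the lymphatic receptor VEGFR3, had 14 and 115 reads, a ratio of 9.75 (5.58 to 18.4) toward the ICM. Flt4, which encodes VEGFR3, had no read in whole blastocysts and 39 reads in the ICM. Flt4 reached an RPKM of 0.555 there and was chosen after its values were seen.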
